A study of Mus musculus with 2 samples.

Results

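The Mir106a-363 cluster is a run of 6 miRNA genes on the mouse X chromosome, Mir106a, Mir18b, Mir20b, Mir19b-2, Mir92-2 and Mir363, and all 6 were found among the 1973 miRNA genes counted in embryonic hearts. They were picked by name for their joint difference between the 2 libraries, so that difference is given here as a description and was not tested. The libraries hold short RNAs from heart tissue of strain B6NCrl embryos at day 15.5, with males and females pooled. They are biological replicates of 1 group, replicate 2 from 62 pooled embryos and replicate 1 from 78. There is no treatment, genotype or second stage, so the spread shown is one between pools. In such bulk samples, more cells of a type and more RNA per cell cannot be told apart.

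The cluster is a copy of the Mir17-92 cluster on chromosome 14, and another copy, the Mir106b-25 cluster, lies on chromosome 5. A microRNA (miRNA) is cut from a hairpin and guides the silencing machinery to mRNAs that pair with its seed, bases 2 to 8. Mir17-92 carries all 4 seeds of the Mir106a-363 cluster and Mir106b-25 carries 2 of them, AAAGUGC and AUUGCAC. miRNAs with a common seed can share targets, known ones of this family being the mRNAs of the cell cycle brake Cdkn1a and the death factor Bcl2l11. In mice the Mir17-92 cluster is needed for lung and heart development, whereas loss of the Mir106a-363 cluster alone is known to be tolerated.

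All 6 genes and their 9 paralogues were matched to RefSeq miRNA sequences (GRCm38.p6). The arm of each hairpin that carries a seed of the family is shown first, because these letters decide which mRNAs a member pairs with and which reads can be told apart. Capitals mark the seed.
miR-106a-5p: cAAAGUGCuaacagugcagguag
miR-17-5p: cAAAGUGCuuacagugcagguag
miR-20b-5p: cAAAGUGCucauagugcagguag
miR-20a-5p: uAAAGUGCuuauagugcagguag
miR-18b-5p: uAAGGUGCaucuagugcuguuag
miR-18a-5p: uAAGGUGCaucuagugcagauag
miR-19b-3p: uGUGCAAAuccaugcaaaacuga
miR-92a-3p: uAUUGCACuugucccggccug
miR-363-3p: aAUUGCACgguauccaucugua
miR-25-3p: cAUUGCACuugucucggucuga

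The members fall into 4 seed groups. Mir106a and Mir20b carry the seed AAAGUGC of Mir17 and Mir20a, Mir18b the seed AAGGUGC, Mir19b-2 the seed GUGCAAA, and Mir92-2 and Mir363 the seed AUUGCAC. Substitutions are given with the base of the paralogue first, the position from the 5′ end, and the base of the member last. miR-106a-5p differs from miR-17-5p by U10A alone over 23 bases. miR-20b-5p differs from miR-20a-5p by U1C and U10C, and miR-18b-5p from miR-18a-5p by A18U and A20U. miR-363-3p and miR-25-3p share the seed but differ at 13 of 22 bases. miR-19b-3p and miR-92a-3p are each made, with no difference, from 2 hairpins, one in this cluster and one in Mir17-92.

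That last point bears on the counts, since reads with several matches in the genome were given to no gene. The hairpins concerned are shown with their longest shared stretch in capitals, 25 bases for the Mir19b pair and 22 for the Mir92 pair. Mir19b-2 lies at chrX:52741983-52742066 (minus strand), Mir19b-1 at chr14:115044305-115044391 (plus), Mir92-2 at chrX:52741838-52741928 (minus) and Mir92-1 at chr14:115044427-115044506 (plus).
Mir19b-2: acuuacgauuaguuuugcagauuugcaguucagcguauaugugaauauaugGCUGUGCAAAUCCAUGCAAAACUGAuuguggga
Mir19b-1: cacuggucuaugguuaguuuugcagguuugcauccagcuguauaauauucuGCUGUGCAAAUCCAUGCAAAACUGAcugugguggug
Mir92-2: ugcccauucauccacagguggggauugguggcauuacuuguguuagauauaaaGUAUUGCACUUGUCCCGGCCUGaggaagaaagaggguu
Mir92-1: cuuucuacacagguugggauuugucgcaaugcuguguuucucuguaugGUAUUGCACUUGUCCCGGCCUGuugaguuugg

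The counts of Mir19b-2 and Mir92-2 can therefore fall short of their level. For the other 4 members the longest stretch shared with any other mouse hairpin in the table was 13 bases (Mir106a), 17 (Mir18b), 14 (Mir20b) and 14 (Mir363). How far the authors' read placement allowed mismatches is not given in the sources used here, so whether some reads of miR-17-5p were counted under Mir106a was not tested.

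The 6 hairpins span 875 bases of the minus strand, chrX:52741693-52742567 on GRCm38 (mm10), in the order Mir106a, Mir18b, Mir20b, Mir19b-2, Mir92-2 and Mir363. The Mir17-92 cluster spans 836 bases. The last 5 bases of the noncoding gene Kis2 (ENSMUSG00000086173, chrX:52742563-52744960) overlap the start of the Mir106a hairpin and lie in a Kis2 exon. The other 5 members overlap 0 annotated genes on their strand. The counted miRNA gene nearest to the cluster, Mir450b, lies 305 kb away, so the 6 genes stand alone. Since Kis2 is the gene that runs into the cluster, the 300 bases around the RefSeq start of Kis2, chrX:52744544-52744843 (minus strand), are shown with GC boxes (GGGCGG or its reverse complement) in capitals. GENCODE places the 5′ end of Kis2 further upstream, so this window lies inside the gene as given above.
Kis2 promoter: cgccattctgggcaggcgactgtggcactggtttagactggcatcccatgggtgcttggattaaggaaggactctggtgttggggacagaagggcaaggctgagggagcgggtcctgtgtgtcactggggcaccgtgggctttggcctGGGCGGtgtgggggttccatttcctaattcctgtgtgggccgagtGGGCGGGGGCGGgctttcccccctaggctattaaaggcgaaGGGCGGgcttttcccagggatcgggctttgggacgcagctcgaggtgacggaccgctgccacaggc

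This window holds 4 GC boxes, 2 of them side by side with no base between them, against a GC box on either strand in 35.6% of 32817 mouse promoter windows of this length. It holds 0 matches to the palindromic E-box CACGTG, found in 7.15% of windows, and 0 to TATAAA on either strand, found in 13.6%. Whether the miRNA genes are transcribed from this start was not tested.

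In the heart the cluster was a minor source of miRNA reads. Levels are counts on the gene's strand per 1000000 such counts (CPM); a read covers a whole mature miRNA, so levels were not divided by length. Replicate 2 held 5833156 counts and replicate 1 held 3439539, and reads with several matches in the genome made up 30.1% and 33.0% of all reads in replicates 2 and 1. The 6 genes summed to 4234 counts in replicate 2 and 549 counts in replicate 1. On the CPM scale the sum was 726 in replicate 2 (Clopper-Pearson 95% interval 704 to 748) against 160 in replicate 1 (147 to 174), or 443 ± 400 (SD, n = 2). These intervals cover counting error only. In all 6 genes the opposite strand had 0 counts in both libraries, which allows up to 3 counts, or 0.514 CPM in replicate 2, against 0.872 CPM in replicate 1.

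The members with the seed of Mir17 had the highest levels. Mir106a (ENSMUSG00000065456.1), the first hairpin of the cluster, had 1463 counts in replicate 2 and 215 in replicate 1, which is 251 CPM (238 to 264) and 62.5 CPM (54.4 to 71.4), a mean of 157 ± 133 CPM (SD, n = 2). Its level ranked 138 of 1973 genes in replicate 2 and 202 in replicate 1. Mir20b (ENSMUSG00000076041.1), the third hairpin, had 1213 counts in replicate 2 and 111 in replicate 1, or 208 CPM (196 to 220) and 32.3 CPM (26.5 to 38.9), a mean of 120 ± 124 CPM. For both genes the counting intervals of the pools lay far apart, with replicate 2 the higher. The intervals of Mir17 did not overlap either, at 14893 to 15090 CPM in replicate 2 and 14561 to 14816 CPM in replicate 1. How many of all genes have intervals that do not overlap was not counted, so nothing is read from such gaps.

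Mir363 (ENSMUSG00000070106.1), the last hairpin and the member with no counterpart by position in Mir17-92, had 918 counts in replicate 2 and 97 in replicate 1. Its level was 157 CPM (147 to 168) in replicate 2 and 28.2 CPM (22.9 to 34.4) in replicate 1, a mean of 92.8 ± 91.3 CPM. Mir92-2 (ENSMUSG00000065613.1), which shares that seed, had 558 counts in replicate 2 and 100 in replicate 1, or 95.7 CPM (87.9 to 104) and 29.1 CPM (23.7 to 35.4), a mean of 62.4 ± 47.1 CPM. Replicate 2 was again the higher in both, with no overlap of the intervals. Mir92-2 counts can come only from reads that reach outside the 22 shared bases or from the other arm, under exact matching.

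Mir18b (ENSMUSG00000077111.2), whose seed differs from that of Mir17 by a base, had far fewer counts than the 4 members above. It had 74 counts in replicate 2 and 18 in replicate 1, or 12.7 CPM (9.96 to 15.9) and 5.23 CPM (3.10 to 8.27), a mean of 8.96 ± 5.27 CPM, and its intervals did not overlap. Mir19b-2 (ENSMUSG00000065473.1), the fourth hairpin, had 8 counts in each library, or 1.37 CPM (0.592 to 2.70) in replicate 2 and 2.33 CPM (1.00 to 4.58) in replicate 1. It was the member that did not stand higher in replicate 2, and its intervals overlapped.

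**Figure D1:**
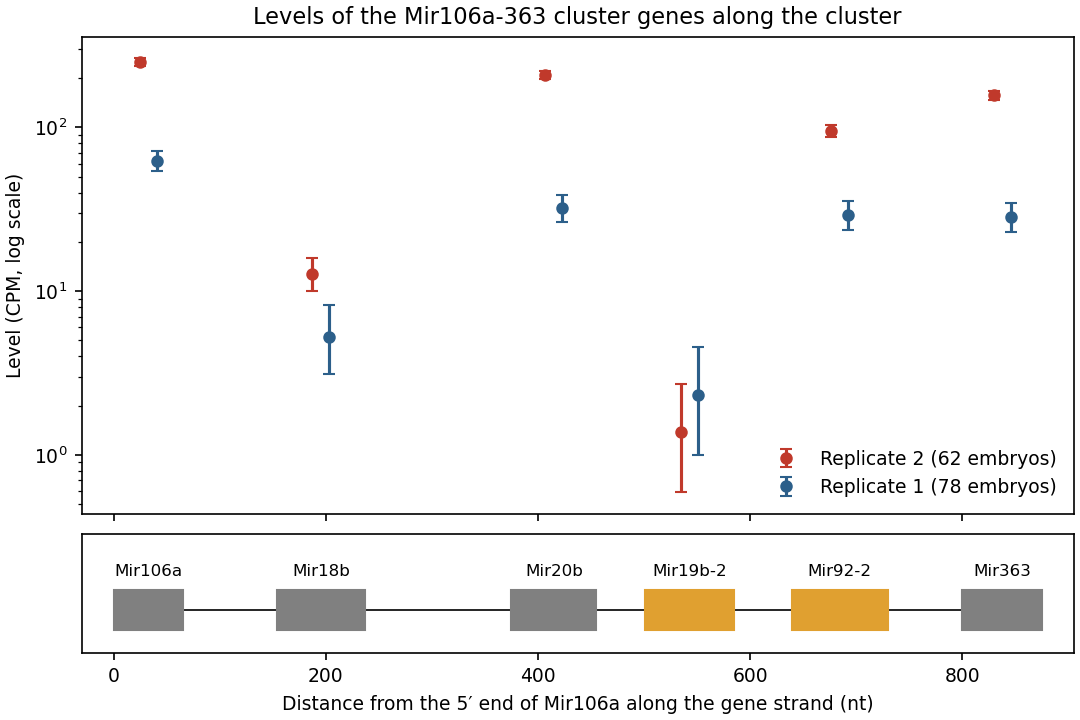
Level of each cluster gene in CPM (log axis) against its distance from the 5′ end of Mir106a, in replicate 2 (red) and replicate 1 (blue), with hairpins drawn to scale underneath. Bars are exact binomial 95% intervals, points of the 2 libraries are set slightly apart, and orange hairpins share 20 bases or more with another hairpin; Mir106a is the highest in both pools, with 251 CPM (replicate 2) and 62.5 CPM (replicate 1), and Mir19b-2 the lowest.

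The order of the levels was not fully the same in the pools. In replicate 2 the order was Mir106a, Mir20b, Mir363, Mir92-2, Mir18b and Mir19b-2, and no 2 neighbours had overlapping intervals. In replicate 1 Mir106a also led, but Mir20b, Mir92-2 and Mir363 lay within 28.2 to 32.3 CPM with overlapping intervals, as did Mir18b and Mir19b-2. Over both pools the SDs of Mir106a, Mir20b and Mir363 were about as large as their means, and the means of Mir106a, Mir20b, Mir363 and Mir92-2 differed between neighbours by less than their SDs. Mir18b (8.96 ± 5.27 CPM) and Mir19b-2 (1.85 ± 0.67 CPM) lay below these 4, with Mir18b the higher in both pools.

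Library sizes were then adjusted by TMM (trimmed mean of M values), and each ratio is the log2 of replicate 2 over replicate 1. Of the 6 members, which all had at least 10 counts summed, 5 were at least 2-fold higher in replicate 2 and 0 were at least 2-fold lower. Of all 413 miRNA genes with at least 10 counts summed, 48 (11.6%) were at least 2-fold higher in replicate 2 and 12 (2.91%) at least 2-fold lower. The median over all these genes was 0.04, against 1.69 over the members, of which 4 rank within the first 31 of the 413 ratios. The rule chose the genes on this contrast, so nothing is read from their share.

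The summed cluster had a log2 ratio of 2.01 (counting interval 1.88 to 2.14), a 4.03-fold higher level in replicate 2 (3.69 to 4.42). Mir20b had the largest ratio of the members at 2.51 (2.23 to 2.81), the seventh of the 413 genes, followed by Mir363 at 2.31 (2.00 to 2.62). Mir106a followed at 1.83 (1.62 to 2.04) and Mir92-2 at 1.55 (1.24 to 1.87). These 4 genes had ratios whose intervals lay above 1. Mir18b, at 1.10 (0.35 to 1.94), passed 2-fold by little, and with a pseudocount of 2 in place of 0.5 its value was 0.99. Mir19b-2 had a ratio of -0.94, and its interval of -2.55 to 0.68 spans no difference.

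**Figure D2:**
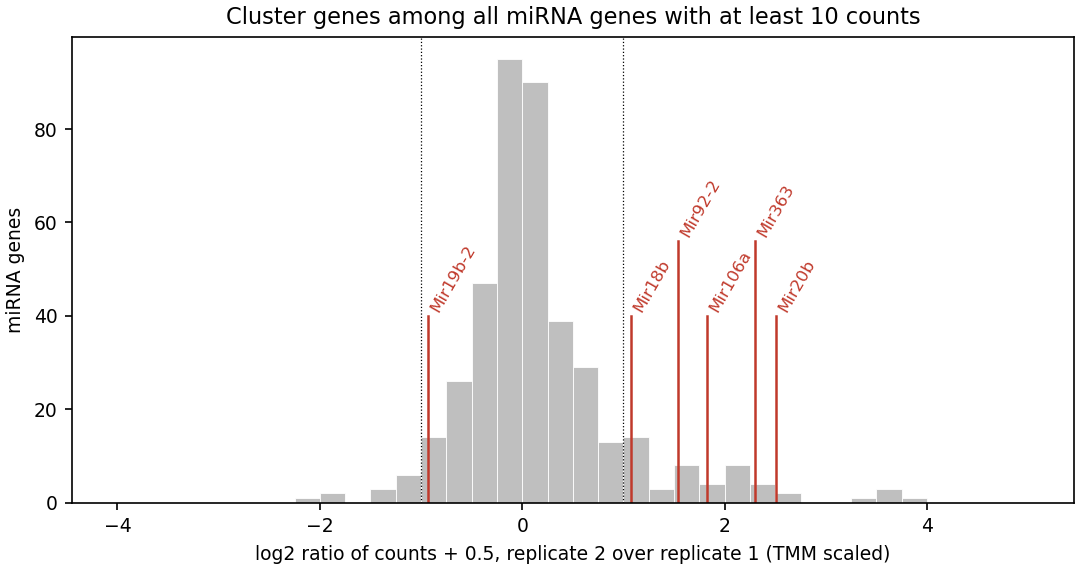
Histogram of the log2 ratio of replicate 2 over replicate 1 (counts + 0.5, TMM scaled) for the 413 miRNA genes with at least 10 counts summed, with the 6 cluster genes marked in red at heights that carry no value. Dotted lines are 2-fold; 5 members lie right of the upper line and Mir19b-2 lies at -0.94.

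How far each member moved can also be given as its share of the cluster's counts. Mir20b made up 28.6% of the cluster's counts in replicate 2 (Clopper-Pearson 95% interval 27.3% to 30.0%) and 20.2% in replicate 1 (16.9% to 23.8%). Mir92-2 made up 13.2% in replicate 2 (12.2% to 14.2%) and 18.2% in replicate 1 (15.1% to 21.7%). The intervals of the pools did not overlap for either gene. Mir106a made up 34.6% in replicate 2 (33.1% to 36.0%) and 39.2% in replicate 1 (35.1% to 43.4%), and Mir363 21.7% (20.4% to 23.0%) and 17.7% (14.6% to 21.1%). Both overlapped between the pools, as did Mir18b with 1.75% in replicate 2 and 3.28% in replicate 1. Mir19b-2 held 0.189% in replicate 2 and 1.46% in replicate 1, on 8 counts in each, and there the intervals did not overlap (0.082% to 0.372% in replicate 2 and 0.631% to 2.85% in replicate 1). In Mir17-92 the share intervals of Mir17 did not overlap either (59.6% to 60.1% in replicate 2 and 62.2% to 62.8% in replicate 1). The same held for Mir18, Mir20a and Mir92-1, while those of Mir19a and Mir19b-1 overlapped. The share intervals cover counting error only, so nothing is read from these gaps.

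The make-up of Mir17-92 was steeper. Its first gene, Mir17, held 59.9% of that cluster's counts in replicate 2 and 62.5% in replicate 1, and Mir20a 24.2% and 23.5%. The count of Mir106a was 121% of that of Mir20b in replicate 2 and 194% in replicate 1, whereas that of Mir17 was 248% and 266% of that of Mir20a. In both clusters the Mir19b gene, which holds the 25 shared bases shown above, had the fewest counts of all members. Mir19a, whose longest shared stretch was 13 bases, had 144 counts in replicate 2 and 70 in replicate 1. Mir92-1, with 22 shared bases, had 10196 and 5186 counts in replicates 2 and 1. The part of the shared stretches in these counts was not tested.

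**Figure D3:**
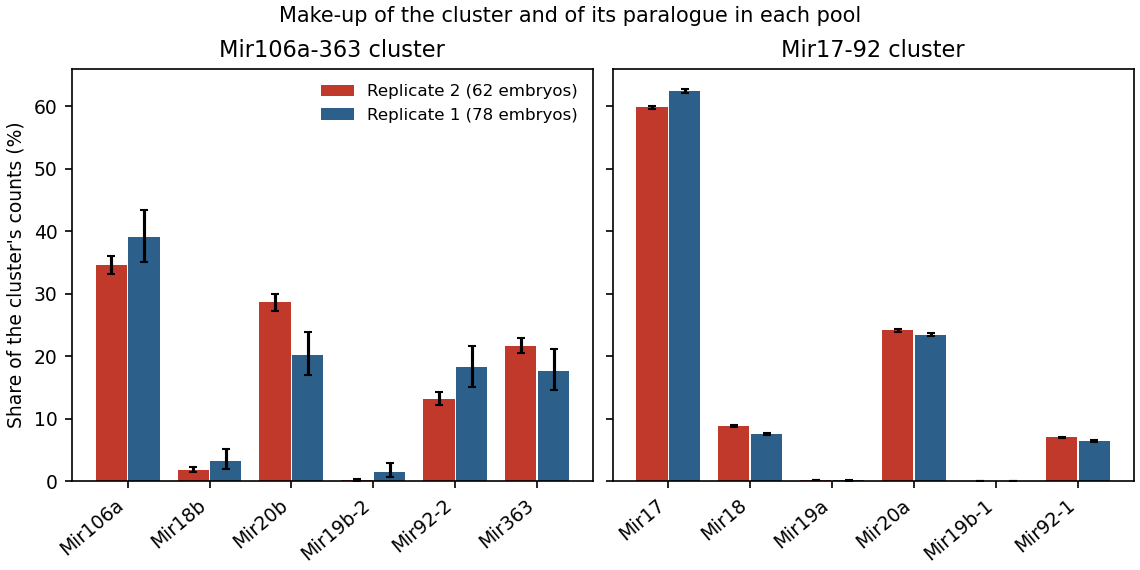
Share of each gene in the counts of its cluster (%, bars start at 0) in replicate 2 (red) and replicate 1 (blue), with exact binomial 95% intervals, for Mir106a-363 (left) and Mir17-92 (right). Mir106a holds 34.6% of the X-linked cluster in replicate 2 and 39.2% in replicate 1, while Mir17 holds 59.9% and 62.5% of the other.

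The paralogous clusters, of which Mir17-92 carries all 4 seeds and Mir106b-25 2, were not chosen by the contrast between the pools. The Mir17-92 cluster summed to 25030 CPM in replicate 2, against 23507 CPM in replicate 1, and the Mir106b-25 cluster to 10239 and 9025 CPM. Among all 413 miRNA genes with at least 10 counts summed, 48 (11.6%) were at least 2-fold higher in replicate 2 and 12 (2.91%) lower. Of the 6 genes of Mir17-92 and the 3 of Mir106b-25, 0 differed by 2-fold in either direction. Their log2 ratios ran from -0.14 for Mir17 to 0.20 for Mir106b after TMM scaling. The summed ratio of Mir17-92 was -0.08 (-0.09 to -0.07) with TMM and 0.09 with total counts, so its direction depends on the scaling, and that of Mir106b-25 was 0.01 with TMM, 0.18 with total counts and -0.03 with DESeq2 size factors.

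**Figure D4:**
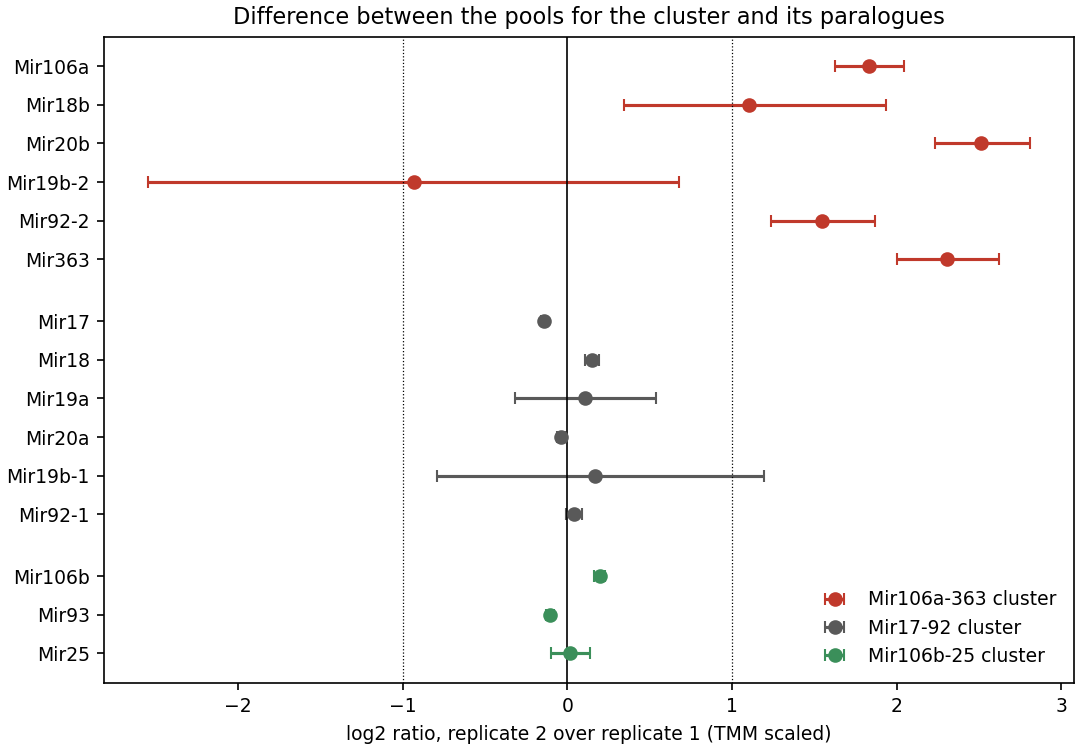
Log2 ratio of replicate 2 over replicate 1 (TMM scaled) for the genes of the Mir106a-363 (red), Mir17-92 (grey) and Mir106b-25 (green) clusters, with exact conditional binomial 95% intervals for counting error alone. Dotted lines are 2-fold; 5 of the 6 X-linked genes lie beyond the upper line, and the 9 paralogues lie between -0.14 and 0.20.

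Ratios of counts within a library need no scaling. The Mir106a-363 cluster had 2.90% of the count of Mir17-92 in replicate 2 and 0.679% in replicate 1, at log2 ratios of -5.11 (-5.15 to -5.06) and -7.20 (-7.33 to -7.08), with a mean of -6.16 ± 1.48 (SD, n = 2). Set against Mir106b-25 it had 7.09% in replicate 2 and 1.77% in replicate 1. The ratio of Mir106b-25 to Mir17-92 was 40.9% in replicate 2 and 38.4% in replicate 1. The X-linked cluster moved by 2.09 on the log2 scale relative to Mir17-92, while the other paralogue moved by 0.09; with 1 library on each side the pools themselves cannot be tested.

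Pair by pair, the X-linked gene had fewer counts than its paralogue in both pools. For the Mir19b and Mir92 pairs, reads that match both hairpins were given to no gene, so the counts do not tell which hairpin yields more. The count of Mir106a was 1.67% of that of Mir17 in replicate 2 and 0.426% in replicate 1. Mir20b had 3.44% of the count of Mir20a in replicate 2 and 0.585% in replicate 1, and Mir18b had 0.573% and 0.295% of that of Mir18, the gene of miR-18a. Mir92-2 had 5.47% of the count of Mir92-1 in replicate 2 and 1.93% in replicate 1. Mir363 had 54.2% of the count of its partner by seed, Mir25 of the Mir106b-25 cluster, in replicate 2 and 11.1% in replicate 1. Mir19b-2 stood at 26.7% of Mir19b-1 in replicate 2 (8 and 30 counts) and at 57.1% in replicate 1 (8 and 14 counts), with overlapping intervals. In replicate 1 the log2 interval of this pair, -2.27 to 0.55, spans no difference. Leaving Mir19b-2 aside, the log2 ratios within the pairs were higher in replicate 2 by 0.96 for Mir18b, the least, to 2.55 for Mir20b, the most.

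Summed over every counted hairpin with the seed, the cluster's part of each seed group can be given as a share of hairpin counts. These counts do not separate the 2 arms of a hairpin, of which 1 carries the seed. Reads of miR-92a-3p and miR-19b-3p with several matches in the genome were given to no gene. The shares therefore need not be those of the mature miRNAs. Of the AAAGUGC counts, Mir106a and Mir20b gave 1.46% in replicate 2 (Clopper-Pearson 95% interval 1.40% to 1.51%) and 0.326% in replicate 1 (0.292% to 0.363%), the rest being Mir17, Mir20a, Mir93 and Mir106b. Mir6383, which carries that seed too, had 0 counts. The whole group stood at 31447 CPM in replicate 2, against 29069 CPM in replicate 1. Of the AUUGCAC counts, Mir92-2 and Mir363 gave 9.98% in replicate 2 (9.50% to 10.5%) and 2.90% in replicate 1 (2.51% to 3.33%), beside Mir92-1, Mir25, Mir32 and Mir92b, with Mir367 at 0. That group summed to 2537 CPM in replicate 2, against 1976 CPM in replicate 1. Mir18b gave 0.570% and 0.295% of the AAGGUGC counts in replicates 2 and 1. In the GUGCAAA group, with 182 counts in replicate 2 and 92 in replicate 1, Mir19b-2 gave 4.40% and 8.70%.

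Most other X-linked miRNA genes stayed within 2-fold between the pools, as did most miRNA genes with at least 10 counts summed. Among all 413 such genes, 48 (11.6%) were at least 2-fold higher in replicate 2 and 12 (2.91%) at least 2-fold lower. Of the 34 other X-linked miRNA genes with at least 10 counts summed, 2 were at least 2-fold higher in replicate 2 and 1 at least 2-fold lower. The median log2 ratio of the 34 was -0.04, against 0.04 for the 413. The 2 higher ones, named here after their values were seen, were Mir325 (75 and 8 counts in replicates 2 and 1) and Mir384 (29 and 6 counts), and the lower one was Mir504 (85 and 98 counts). The 18 with a mean of at least 1000 counts ran from -0.40 for Mir450b to 0.32 for Mir223. Among them Mir322, the most abundant X-linked miRNA gene, had 72546 CPM in replicate 2, against 81074 CPM in replicate 1.

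The 6 genes outside the cluster with the most similar ratio, among 247 with a mean of at least 100 counts, came from 3 loci. They were chosen by the absolute difference of the log2 ratio from that of the summed cluster, over the 2 libraries, so the likeness rests on a single ratio for each gene. Mir7b, a miRNA of neural and endocrine cells, differed by 0.02, with 38.9 CPM in replicate 2, against 8.43 CPM in replicate 1. Mir200c and its neighbour Mir141, miRNAs of epithelial cells on chromosome 6, differed by 0.04 and 0.17, with Mir200c at 1672 CPM in replicate 2, against 357 CPM in replicate 1. Mir182, Mir96 and Mir183, a cluster best known from sensory organs, also on chromosome 6, differed by 0.09, 0.15 and 0.17.

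Epithelial, neural, endocrine and liver lists held markers at least 2-fold higher in replicate 2, as the cluster was, and the other 7 lists held 0 such markers. The lists are short, with 1 gene each for liver and endothelium. Among all 413 miRNA genes with at least 10 counts summed, 48 (11.6%) were at least 2-fold higher in replicate 2. Of the 7 epithelial miRNAs fixed as markers, 6 were at least 2-fold higher in replicate 2 and 0 lower, and the list summed to 6297 CPM in replicate 2, against 1821 CPM in replicate 1. Of 8 counted neural markers 4 had at least 10 counts summed, and all 4 were at least 2-fold higher in replicate 2. These were Mir137, Mir128-1, Mir128-2 and Mir9-3, the last on only 9 counts in replicate 2 and 1 in replicate 1. The neural list summed to 573 CPM in replicate 2, against 158 CPM in replicate 1. The defining neural genes Mir124a-1, Mir124a-2 and Mir124a-3, and Mir9-2, had 0 counts in both. Under this counting rule, reads that match several hairpins are given to no gene, so these zeros need not mean absence. Whether the rule explains them was not tested. Of 4 endocrine markers 2 were higher, with sums of 1110 CPM in replicate 2, against 175 CPM in replicate 1, and the liver marker Mir122 stood at 309 and 87.2 CPM. The 4 heart muscle markers, which lie in genes of the contractile apparatus and of a muscarinic receptor, summed to 45592 CPM in replicate 2, against 62459 CPM in replicate 1, with 0 of 4 past 2-fold, so both libraries carry the labelled tissue. Of the 3 erythroid markers 1 was at least 2-fold lower in replicate 2, with sums of 1095 and 2457 CPM in replicates 2 and 1. In the smooth muscle, endothelium, mesenchyme, leukocyte and pluripotency lists 0 genes passed 2-fold in either direction. Their sums in replicates 2 and 1 were 89291 and 83564 CPM for smooth muscle, 67775 and 79217 CPM for endothelium, 8924 and 5578 CPM for mesenchyme, and 702 and 480 CPM for leukocytes. The pluripotency list, here led by Mir302 genes, summed to 814 CPM in replicate 2, against 900 CPM in replicate 1, with Mir367 and Mir290a at 0. The part of these markers, or of the difference in depth, in the difference of the Mir106a-363 cluster was not tested.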

How the data were processed

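Small RNA libraries from 2 pools of embryonic mouse heart tissue were analysed, both in 1 group. The authors deposited whole, unnormalized read counts per miRNA gene (either strand, strand of the gene, opposite strand) with assembly mm10 and GENCODE annotation M4, per the text deposited with the counts; for the aligner, trimming and counter, nothing is given in the sources used here. Counts on the gene's strand were used. Of all reads, 15.1% in replicate 2 and 13.1% in replicate 1 were unmapped, and 5.07% and 5.11% matched no miRNA gene; these lines stayed out of totals.

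Gene IDs were matched without version to GENCODE M21 symbols of the same assembly (1894 of 1973). Ratios used TMM effective library sizes from edgeR 4.0.16 (R 4.3.3), with total counts and DESeq2 1.42.0 size factors as alternatives. A pseudocount of 0.5 was used where genes were counted as past 2-fold or ranked by ratio. It was also used for the all-gene histogram and median and for the ratios of the other X-linked genes. Genes needed at least 10 counts summed. Intervals are exact (Clopper-Pearson, or conditional binomial for ratios) at 95% and cover counting error only, since no molecular identifiers are in the files. With 1 library on each side and members chosen on this contrast, no p-values were computed. The TMM scaling and the ratios with their intervals were tested on simulated counts. These held counting error and set changes only, with no other spread between pools and no reads with several matches. Members and lists were chosen with earlier results of these data known. The named genes are the members, their paralogues, the 6 most similar genes with a mean of at least 100 counts, and X-linked genes with a mean of at least 1000. Marker lists covered heart muscle, smooth muscle, endothelium, mesenchyme, erythroid, leukocyte, epithelium, neural, endocrine, pluripotency and liver miRNAs; Mir142, Mir9-1 and Mir292a matched no counted gene name and were not used here. Other steps ran in Python 3.11.15 with scipy 1.17.1, numpy 2.4.6, pandas 2.3.3 and matplotlib 3.10.9.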

Additional observations from a re-analysis of the deposited data

How the results depend on the processing

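Scaling by total counts moves every log2 ratio up by 0.17 against TMM, and DESeq2 size factors move it down by 0.04. The summed cluster stayed past 2-fold under every setting tried: its log2 ratio was 2.19 with total counts, 1.97 with DESeq2 size factors, 2.01 with counts of either strand, 2.12 without Mir19b-2 and Mir92-2, and 1.69 as the median of the members. For Mir17-92 it was 0.091 with total counts and -0.12 with DESeq2 size factors, and for Mir106b-25 0.18 and -0.031. In alternatives added once the data had been seen, 4 of the members were past 2-fold with a pseudocount of 2 (Mir18b at 0.99) and 4 with at least 100 counts summed, where Mir18b and Mir19b-2 leave. Of all genes, 135 were at least 2-fold higher in replicate 2 and 71 lower with no filter on counts, 23 and 2 with at least 100 counts summed, 56 and 7 with total counts, and 35 and 12 with a pseudocount of 2. With either library left out, the cluster's level is that of the other, from 160 to 726 CPM, and its log2 ratio to Mir17-92 from -7.20 to -5.11, so 1 pool decides both means. Depth limits Mir19b-2 and Mir18b, with 8 and 18 counts in replicate 1. No paired analysis was possible because there is only 1 group.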
